A study of Mus musculus with 6 samples.

Results

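The NADPH oxidase of phagocytes is a membrane enzyme that passes electrons from NADPH to oxygen and so makes superoxide. Its core in the membrane is a pair of proteins encoded by Cybb (the catalytic subunit, also called gp91phox or NOX2) and Cyba (p22phox). Cytosolic subunits, among them p47phox (Ncf1) and p40phox (Ncf4), and a small GTPase of the Rac family join this core when the cell is activated, and the proton channel encoded by Hvcn1 balances the charge that the electrons carry out. In brain, microglia and incoming phagocytes are the cells best known for this oxidase.

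The genes described here were Cyba, Cybb, Ncf1, Ncf4 and Hvcn1, 5 genes taken by name as parts of this complex and found by their Ensembl identifiers. The value of a gene in a library was the largest of its summed start events, its summed end events and any single event. Of the 5 genes, 4 were among the 15441 genes with a value in at least 1 library. Cyba (ENSMUSG00000006519; mm10 chromosome 8, 122424776 to 122432930, minus strand) had none: no start, end or splicing event was listed under its identifier, and 0 events of any identifier overlapped its annotated span in each of the 6 libraries. The transcript level of p22phox could therefore not be followed in these tables, and its absence from them says nothing of its level.

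The samples were the ipsilateral cerebral cortex of male C57/BL6J mice, 6 to 8 weeks old at operation. Stroke was made by photothrombosis, in which the dye Rose Bengal is injected and the skull over the sensorimotor cortex is illuminated for 15 min, and tissue was taken 1, 3, 7, 14 or 28 days later. The control mice had a sham operation without illumination and were sampled 7 days after it, so all 5 days were compared with the same control library. Total RNA of 3 mice was pooled for each group and made into 1 strand-specific poly(A) library, which gives 6 libraries, 1 per group. The spread between mice is not known, and no difference below carries a test. Values are the authors' FPKM, the fragments of a transcript scaled to its length and to the mapped reads of the library, and ratios to control are given as log2 after adding 0.1 to both FPKM, so the ratios of genes with low FPKM are pulled towards 0. The depth of each library is unknown and only an average of 33.6 M reads per sample is stated. The listed genes per library ranged from 13263 (day 14) to 13987 (day 7), and 81206 (day 14) to 96397 (day 7) events were used. The cortex markers Snap25 (neurons) and Mbp (myelin) were listed in all 6 libraries, at 486 to 706 FPKM and 1142 to 1591 FPKM.

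The values of 4 genes rested on the transcript features listed for them, and the following sequences show the coding exons in which the listed events differed or by which a gene could be followed. They were read from the GENCODE M21 transcripts (GRCm38, the assembly also called mm10), 5′ to 3′ on the strand of the gene. For Cybb, the exon of chrX:9455134-9455279 (minus strand, exon 5 of 13, 146 bases) is shown because the value on day 14 rested on its inclusion. For Hvcn1, the exon of chr5:122233420-122233692 (plus strand, exon 4 of 8, 273 bases) is shown because its inclusion was listed at the value of the gene in 5 libraries. For Ncf4, the exon of chr15:78255452-78255509 (plus strand, exon 6 of 10, 58 bases) was listed both as an included exon and as an inner start. For Ncf1, the stretch of chr5:134221953-134222175 (minus strand, last exon of a coding transcript that keeps the last intron) holds 146 bases shared by both listed forms of this exon, then in capitals 42 bases that the shorter exon form lacks, then in lower case 35 further bases that are coding when the last intron is kept.
Cybb: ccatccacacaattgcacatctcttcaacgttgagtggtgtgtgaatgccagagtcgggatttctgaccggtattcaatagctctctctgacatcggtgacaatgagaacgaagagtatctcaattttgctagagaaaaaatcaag
Hvcn1: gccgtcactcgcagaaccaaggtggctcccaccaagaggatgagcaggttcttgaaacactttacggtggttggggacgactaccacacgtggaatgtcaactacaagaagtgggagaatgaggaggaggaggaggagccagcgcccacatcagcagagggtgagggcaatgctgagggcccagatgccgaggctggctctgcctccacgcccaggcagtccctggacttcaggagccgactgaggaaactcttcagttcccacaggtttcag
Ncf4: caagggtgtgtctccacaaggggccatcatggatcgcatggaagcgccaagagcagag
Ncf1: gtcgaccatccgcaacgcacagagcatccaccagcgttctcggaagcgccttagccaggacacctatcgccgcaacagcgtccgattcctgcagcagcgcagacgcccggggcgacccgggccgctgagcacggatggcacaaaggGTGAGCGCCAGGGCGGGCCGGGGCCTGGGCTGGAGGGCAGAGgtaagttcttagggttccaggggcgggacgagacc

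Across the time course, the 4 listed genes had their highest values on day 7 or day 14 post-stroke and came down towards control by day 28. Cybb, Ncf1 and Hvcn1 were highest on day 7, and Ncf4 on day 14. Their summed FPKM was 2.90 in control, 5.72 on day 1, 15.8 on day 3, 21.4 on day 7, 10.3 on day 14 and 4.78 on day 28. In a bulk library, more cells that carry a transcript and more transcript per cell cannot be told apart.

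**Figure D1:**
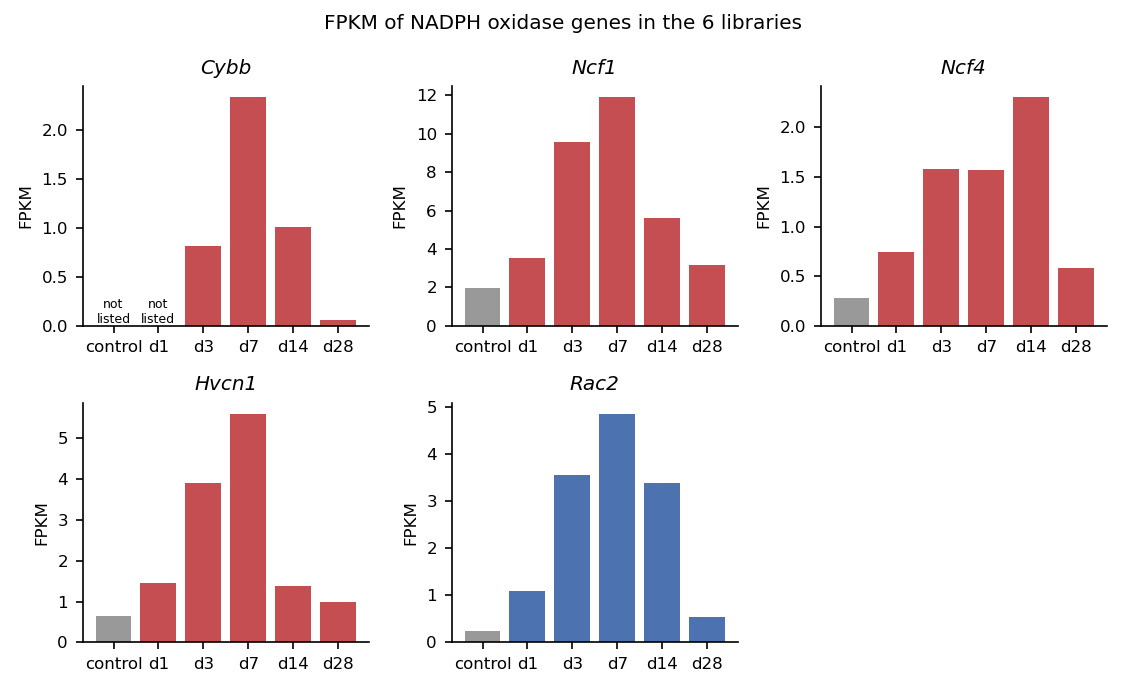
FPKM (vertical axis, linear, from 0) of 4 oxidase genes (red) and of the partner Rac2 (blue) in the control library (grey) and the libraries of days 1 to 28 (d1 to d28), 1 bar per library and no error, since each group has 1 library. Ncf1 reaches 11.9 FPKM and Cybb 2.33 FPKM on day 7, Ncf4 reaches 2.30 FPKM on day 14, and Cybb is not listed in control and on day 1.

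Cybb (ENSMUSG00000015340), which encodes the catalytic subunit, lies on chromosome X, 9435252 to 9487771 (minus strand). It was not listed in control and on day 1, and had 0.813 FPKM on day 3, 2.33 on day 7, 1.00 on day 14 and 0.0583 on day 28. The 3 libraries of days 3 to 14 thus stood above the other 3, in which Cybb was at 0.0583 FPKM or not listed. No ratio of Cybb to control is printed, because the gene was not listed there and the depth is unknown. The counts and medians below take its control value as 0. From day 3 to day 7 the log2 ratio of the later to the earlier library was 1.41, and from day 7 to day 14 it was -1.14.

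The value of Cybb depended on which of its features was read. Exon 5 was listed as included at 0.752 FPKM on day 3, 2.26 on day 7 and 1.00 on day 14. The start at the annotated first exon had 0.813, 2.33, 0.0446 and 0.0583 FPKM on days 3, 7, 14 and 28. The only listed end, which belongs to a short transcript that stops early in the gene (a retained intron form in the annotation), stayed between 0.0446 and 0.0676 FPKM on days 3 to 28. On day 28 the start and this end had the same value, and exon 5, which the short form lacks, was not listed. On day 14 the start and the end again had the same value, while exon 5 was listed at 1.00 FPKM. No end of the full-length transcript was listed in any library.

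Ncf1 (ENSMUSG00000015950), for the organiser subunit p47phox, lies on chromosome 5, 134220053 to 134229625 (minus strand). It was the most abundant of the 4 genes in every library: 1.98 FPKM in control, 3.54 on day 1, 9.55 on day 3, 11.9 on day 7, 5.63 on day 14 and 3.15 on day 28. The log2 ratio to control was 0.80, 2.21, 2.52, 1.46 and 0.64 on days 1, 3, 7, 14 and 28. Its highest level was 5.99 times the control level, and each post-stroke library was above control. Its value on day 28 was 26.5% of that on day 7, and its value in control 16.7%.

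Hvcn1 (ENSMUSG00000064267), for the voltage-gated proton channel, lies on chromosome 5, 122206804 to 122242297 (plus strand). It had 0.639 FPKM in control, 1.45 on day 1, 3.89 on day 3, 5.59 on day 7, 1.38 on day 14 and 0.988 on day 28. The log2 ratio to control was 1.06, 2.43, 2.94, 1.00 and 0.56 on these 5 days. Of the 3 genes listed in control it had the highest ratio on day 7 and the lowest on day 14: the level on day 14 was 24.7% of that on day 7, against 47.3% for Ncf1. The value of day 14 lay at the threshold of 1 and was 0.55 when only starts were summed. The end of Hvcn1 overlaps the gene Tctn1 on the other strand, for which an end was listed in each library. The libraries were strand-specific and these events were listed under their own strand and identifier.

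Ncf4 (ENSMUSG00000071715), for the p40phox subunit that binds a membrane phosphoinositide, lies on chromosome 15, 78244801 to 78262580 (plus strand). It had 0.280 FPKM in control, 0.742 on day 1, 1.58 on day 3, 1.57 on day 7, 2.30 on day 14 and 0.586 on day 28. The log2 ratio to control was 1.15, 2.15, 2.14, 2.66 and 0.85. Days 3 and 7 were thus level and day 14 was highest. This order rested on the listed end, at 1.56 FPKM on day 3, 1.56 on day 7 and 2.30 on day 14. The summed starts were 1.58, 1.57 and 1.58 FPKM, which puts day 3 slightly first and shows no higher value on day 14. In control, only the end was listed.

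**Figure D2:**
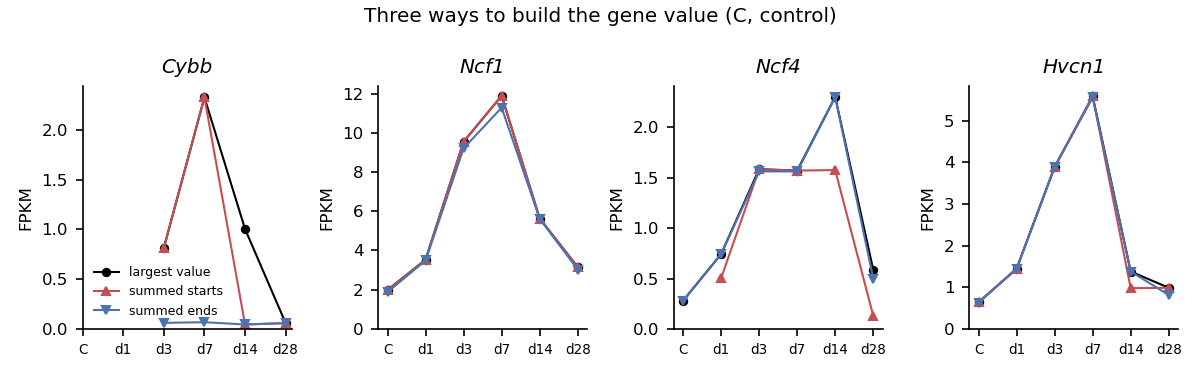
FPKM (vertical axes, linear, from 0) of Cybb, Ncf1, Ncf4 and Hvcn1 in the control library (C) and on days 1 to 28, built as the sum of listed starts (red), the sum of listed ends (blue) or the largest of these and any single event (black, the value used). The 3 lines lie close together for Ncf1 and, but for day 14, Hvcn1, while Cybb and Ncf4 depend on the construction. By ends Cybb has 0.0610 FPKM on day 3 and 0.0676 on day 7 (0.813 and 2.33 by starts), by both 0.0446 on day 14 (1.00 by the value used), and Ncf4 by starts has 1.58 on day 14 and 0.131 on day 28 (2.30 and 0.586 by the value used).

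A gene was compared on a day if it reached 1 FPKM there or in control, and a log2 ratio of at least 1 in size was counted. On day 1, 2 of the 4 genes could be compared and 1, Hvcn1, was past this ratio, where 5.11% of all 11790 genes compared were higher. On day 3 the count was 3 of 3 (Hvcn1, Ncf1 and Ncf4), against 8.54% of 12052 genes. On day 7 and on day 14 it was 4 of 4, against 8.53% of 12069 and 8.97% of 12045 genes. Cybb entered both counts with its control value taken as 0. On day 14 it did so through exon 5 alone, which just reached 1 FPKM (1.00, against 0.0446 for its start). With only genes listed in both libraries, the count was 3 on day 7 and on day 14. On day 28 it was 0 of 1 gene compared, against 3.68% of 11751 genes. No member was past a log2 ratio of -1 on any day, where 4.48%, 2.53%, 2.12%, 6.92% and 2.79% of the genes compared were lower (days 1, 3, 7, 14 and 28). A gene such as Cybb could be compared only on the days when it was high, so these counts describe the genes and are no support for them. The median log2 ratio over the 4 genes, with unlisted values taken as 0, was 0.93, 2.32, 2.73, 2.06 and 0.65 on days 1, 3, 7, 14 and 28. On day 14 the median over the 3 genes listed in both libraries was 1.46. The median over all genes compared was at most 0.10, on day 14.

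FPKM is scaled to transcript length, but each value was the largest of summed starts, summed ends and any single event. The feature behind a value differed between genes and days, so the orders and ratios given here depend on this construction. In control the order was Ncf1, Hvcn1 and Ncf4, and on day 7 Ncf1, Hvcn1, Cybb and Ncf4. By summed ends on day 7, Cybb (0.0676 FPKM) stood below Ncf4 (1.56). On day 14, Ncf4 (2.30 FPKM) stood above Hvcn1 (1.38) and Cybb (1.00). By summed starts Ncf4, Hvcn1 and Cybb had 1.58, 0.979 and 0.0446 FPKM on day 14, which keeps this order. Hvcn1 had 0.470 of the FPKM of Ncf1 on day 7 and 0.245 on day 14, whereas Ncf4 had 0.132 and 0.409. The ratios of day 14 set the ends of Hvcn1 and Ncf4 against the summed starts of Ncf1. Without replicates it cannot be said which neighbours in these orders differ beyond the spread between mice.

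The transcript features of Ncf1 showed a change of form beside the change of level. Of its ends, the common form had the last intron removed, and the other kept it. This intron has 161 bases beside the shorter exon form and 119 beside the longer. It is kept in an annotated coding transcript, whose added coding bases stand at the end of the sequence printed above. The end with the intron kept had 0.00523 FPKM in control, 0.652 on day 1, 1.41 on day 3, 0.835 on day 7, 0.796 on day 14 and 0.00395 on day 28. The end with the intron removed had 1.88, 2.84, 7.81, 10.4, 4.82 and 3.03 FPKM in the same order. The form with the intron kept thus made up 0.278% of the listed ends in control and 0.130% on day 28, and 18.7%, 15.2%, 7.40% and 14.2% on days 1, 3, 7 and 14. These are shares of estimated FPKM between overlapping forms, with no read counts behind them and no replicate.

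**Figure D3:**
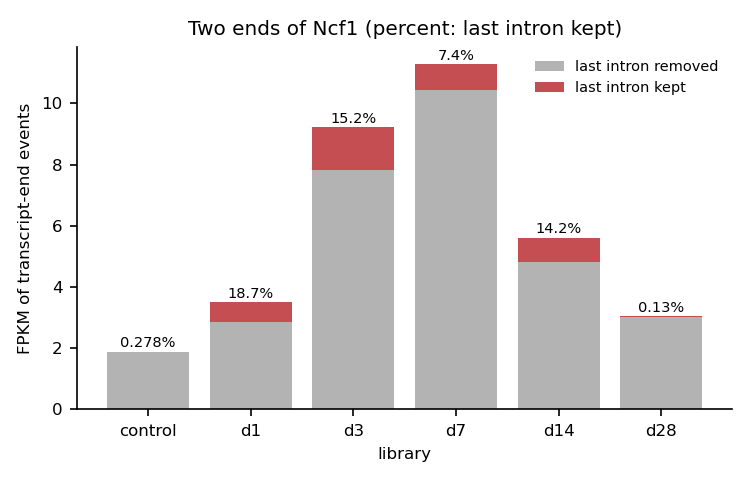
FPKM of the end events of Ncf1 (vertical axis, linear, stacked from 0) in the 6 libraries, with the last intron removed (grey) or kept (red), and the percentage with the intron kept above each bar. The red part is visible on days 1 to 14, from 7.40% to 18.7%, and is below 0.3% in control and on day 28.

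The exon form with the 42 bases shown in capitals was listed on its own only on day 28, at 0.433 FPKM, beside 2.59 FPKM for the shorter form. The shorter form had 1.88 FPKM in control and 10.4 FPKM on day 7. An inner start of Ncf1 stayed at 0.0147 (day 14) to 0.603 FPKM (day 7), at most 5.12% of the listed starts.

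Hvcn1 was listed with 3 starts. The start whose exon has 193 bases had 1.36 FPKM on day 1, 1.97 on day 3, 2.09 on day 7, 0.556 on day 14 and 0.321 on day 28, and was not listed in control. The start whose exon has 524 bases had 0.496 FPKM in control, 1.42 on day 3, 2.60 on day 7, 0.423 on day 14 and 0.174 on day 28, and was not listed on day 1. The innermost start, with 259 bases, had 0.143 in control, 0.0832 on day 1, 0.496 on day 3, 0.902 on day 7 and 0.493 on day 28, and was not listed on day 14. The exons of the first pair of starts overlap each other, and the exon of the innermost start overlaps the one of 524 bases. The innermost start made up between 5.75% (day 1) and 50.0% (day 28) of the starts where it was listed. The exon shown above for Hvcn1 was listed as included at the same value as the gene in control and on days 1, 3, 7 and 28.

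Ncf4 was listed with an outer start, at 0.503 FPKM on day 1, 1.40 on day 3, 1.47 on day 7 and 1.53 on day 14, and an inner start at the exon of 58 bases shown above. The inner start had 0.181, 0.106, 0.0423 and 0.131 FPKM on days 3, 7, 14 and 28. On day 28 it was the only start listed. Skipping of another exon, of 149 bases, was listed from day 1 on, at 0.423, 1.58, 1.57, 1.58 and 0.586 FPKM, with no event for its inclusion.

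Of 12 further genes of the oxidase family, 4 had a value. Rac2, the Rac GTPase of blood cells, had 0.247 FPKM in control, 1.09 on day 1, 3.55 on day 3, 4.85 on day 7, 3.38 on day 14 and 0.538 on day 28, with a log2 ratio of 3.83 on day 7. It was highest on day 7, like Cybb, Ncf1 and Hvcn1, and on day 14 it had 69.7% of its day 7 level, against 43.1% for Cybb. The widely expressed Rac1 was far more abundant and lay between 54.0 (control) and 61.8 FPKM (day 7), with log2 ratios of 0.03 to 0.19. Cybc1, for a chaperone that the Cybb protein needs to mature, lay between 7.53 and 11.1 FPKM, highest on day 3, with log2 ratios of -0.09 to 0.47. Noxo1, the organiser of another oxidase, had at most 0.228 FPKM. Nox1, Nox3, Nox4, Noxa1, Duox1, Duox2, Duoxa1 and Duoxa2 had no value in any library. On day 7, 3 of the 4 genes could be compared, of which 1 (Rac2) was past a log2 ratio of 1 and 0 were below -1, and the median ratio of the 4 was 0.08. Over all genes compared, 8.53% were higher and 2.12% lower on that day. For Rac2, an end with a longer final exon was listed only on days 7 and 14, at 1.28 and 0.819 FPKM, which was 26.5% and 24.2% of its ends.

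Genes that work upstream of the oxidase were counted in the same way. Over all genes compared, 5.11%, 8.54%, 8.53%, 8.97% and 3.68% were higher on days 1, 3, 7, 14 and 28. Pik3cg and Clec7a were not listed in control and entered the counts below with a control value of 0. Of 10 signalling genes, all with a value, 6 were on day 7 past a log2 ratio of 1 (Vav1, Dock2, Pik3cg, Syk, Btk and Plcg2) and 0 were below -1, with a median ratio of 1.14 against 0.03 over all genes compared. On the other days fewer were past this ratio, 0 on day 1, 3 on day 3 (Pik3cg, Plcg2 and Vav1), 1 on day 14 (Vav1) and 0 on day 28, with medians of -0.09 on day 1 and -0.15 on day 28. Vav1, a guanine nucleotide exchange factor for Rac, had 1.11 FPKM in control and 5.39 on day 7 (log2 ratio 2.18), and Syk, a kinase that signals from immune receptors, had 1.01 and 2.59 FPKM. Prkcb and Prkcd, kinases known to phosphorylate p47phox, had log2 ratios of 0.14 and 0.38 on day 7. Of 10 receptors and adaptors that can trigger the oxidase, 6 had a value and all 6 were past a log2 ratio of 1 on days 3, 7 and 14, with a median ratio of 2.66 on day 7, and 0 were on day 1 and 1 (Clec7a) on day 28. The beta-glucan receptor Clec7a, was not listed in control and had 12.6 FPKM on day 7. Among the others, the integrin chain Itgb2 had 1.47 FPKM in control and 12.8 on day 7, and the Fc receptor adaptor Fcer1g had 8.60 and 51.2 FPKM. Of 8 myeloid transcription factors, 4 had a value and 3 (Spi1, Irf1 and Elf1) were past a log2 ratio of 1 on day 7, with a median of 1.09 over the 4. On days 1, 3, 14 and 28 the count was 1, 2, 2 and 0. Spi1 (PU.1), a factor known to drive oxidase genes in myeloid cells, had 1.89 FPKM in control, 3.84 on day 1, 7.85 on day 3, 9.45 on day 7, 6.96 on day 14 and 2.44 on day 28, with a log2 ratio of 2.26 on day 7.

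Because of this known role of Spi1, the promoters of the members were searched for TTCCTC, a form of the PU.1 core motif, on both strands (GAGGAA on the other). Promoter sequences of RefSeq on GRCm38.p6 held 3 of the 5 members, with 250 bases before and 50 bases after each start. Cybb had 1 match, which begins at base 10 of the transcript. Ncf1 and Cyba had 0 matches. Of all 32851 promoters, 28.3% held the motif on either strand. The windows below run from 100 bases before the start to base 30 of the transcript, with the match in capitals. They lie at chrX:9469295-9469424 (Cybb) and chr5:134229596-134229725 (Ncf1), both on the minus strand. A match of letters is no binding site, and its absence from the Ncf1 window says only that these letters are not in it.
Cybb promoter: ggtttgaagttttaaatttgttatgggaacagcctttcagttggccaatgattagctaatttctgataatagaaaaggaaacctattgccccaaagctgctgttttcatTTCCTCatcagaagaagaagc
Ncf1 promoter: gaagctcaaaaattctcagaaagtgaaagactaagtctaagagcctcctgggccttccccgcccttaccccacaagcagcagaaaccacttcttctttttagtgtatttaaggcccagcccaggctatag

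Marker genes of the cells known for this oxidase are given beside the members. Of 9 microglia markers, 8 had a value and 6 (P2ry12, Csf1r, Aif1, Siglech, Sall1 and Gpr34) were listed in all 6 libraries. The median log2 ratio of these 6 was -0.51, 0.73, 0.69, 0.50 and -0.06 on days 1, 3, 7, 14 and 28. On day 7 these 6 ratios ranged from -0.72 (Siglech) to 1.12 (Csf1r), and Ncf1, Ncf4 and Hvcn1 were 1.83, 1.45 and 2.25 above their median. The ratio of each of these 3 genes was above that of every one of the 6 markers on days 1, 3, 7 and 28. Other immune genes had ratios as high as these 3 genes. On day 7 the 5 receptors and adaptors listed in control were at 2.04 (Fcgr3) to 3.04 (Itgb2). On day 14, of Ncf1, Ncf4 and Hvcn1, Ncf4 (2.66) alone was above the highest of the 6 markers (Aif1, 1.75). The microglia markers Cx3cr1 (highest on day 14, 1.84 FPKM) and Tmem119 (highest on day 7, 0.961 FPKM) were not listed in control and are not among the 6. What part cell number had in the values of the oxidase genes was not tested.

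**Figure D4:**
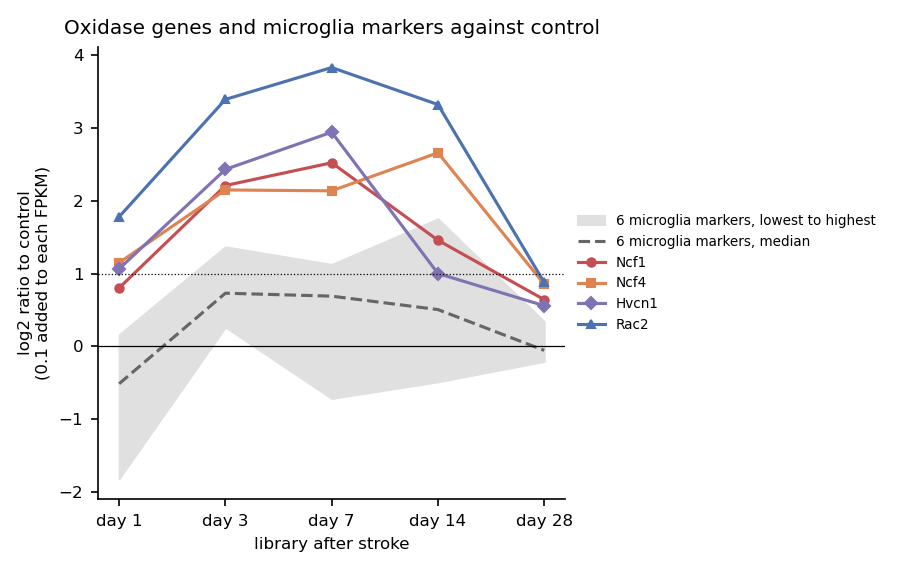
Log2 ratio to control (vertical axis, 0.1 added to each FPKM) on days 1 to 28 of Ncf1, Ncf4, Hvcn1 and Rac2, with the lowest to highest value (grey band) and the median (dashed line) of 6 microglia markers. The dotted line marks a log2 ratio of 1. The oxidase genes lie at 2.14 to 3.83 on day 7, where the marker median is 0.69.

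Neutrophils carry much of this oxidase in blood. Of 11 neutrophil markers, 8 had a value, and their summed FPKM was 1.53 in control, 20.1 on day 1, 5.61 on day 3, 7.07 on day 7, 12.5 on day 14 and 2.22 on day 28. Most of the sum on day 1 came from S100a8 (6.18 FPKM) and S100a9 (10.1 FPKM). Csf3r, the receptor for granulocyte colony-stimulating factor and on the same list, took another course, with 1.30 FPKM in control, 1.37 on day 1, 4.03 on day 3, 5.74 on day 7, 3.04 on day 14 and 2.22 on day 28. It made up most of the sum on days 3 and 7 and had a log2 ratio of 2.06 on day 7. The neutrophil genes Ly6g, Mpo and Elane had no value in any library. The sum was thus highest on day 1, when the members summed to 5.72 FPKM, while Csf3r was highest on day 7, as was the sum of the members. Of the other neutrophil markers, S100a8, S100a9, Retnlg (1.34 FPKM), Ngp (0.792) and Cxcr2 (0.294) were highest on day 1. Ltf (0.513 FPKM) and Camp (0.133) were highest on day 7. Of the markers of monocytes and macrophages, all 9 had a value, and their sum was 3.02 FPKM in control, 26.2 on day 3, 14.3 on day 7 and 12.1 on day 14. Arg1 alone had 12.5 FPKM on day 3. F13a1 (4.98 FPKM), Mrc1 (3.74) and Chil3 (0.411) were also highest on day 3. Ms4a7 (3.96 FPKM, and 3.91 on day 14) and Cd163 (0.592) were highest on day 7. Ly6c2 (3.56 FPKM) and Plac8 (2.42) were highest on day 14, and Ccr2 (0.199) on day 1. Of 8 lymphocyte markers, 5 had a value, and their sum was 13.9 FPKM in control, 5.41 on day 3, 9.44 on day 7 and 14.3 on day 14. The T cell receptor gene Trbc2 made up most of it in control, with 11.4 FPKM against 2.86 on day 3 and 8.73 on day 14, and Cd4 had 2.56 FPKM in control and 4.43 on day 14. Other T cell markers on the list did not share this course. Cd3e was listed only on day 14, at 0.131 FPKM, and Cd3g and Cd8a had no value in any library. B cells also express Hvcn1, and of their markers Cd79a was listed at 0.605 to 1.03 FPKM from day 3 on and Cd79b at 0.378 and 0.587 FPKM on days 3 and 7, while Ms4a1 had no value. The summed neuron markers had 1462 FPKM in control, 1076 on day 7 and 979 on day 14. The part of these cell types in the values of the members was not tested.

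**Figure D5:**
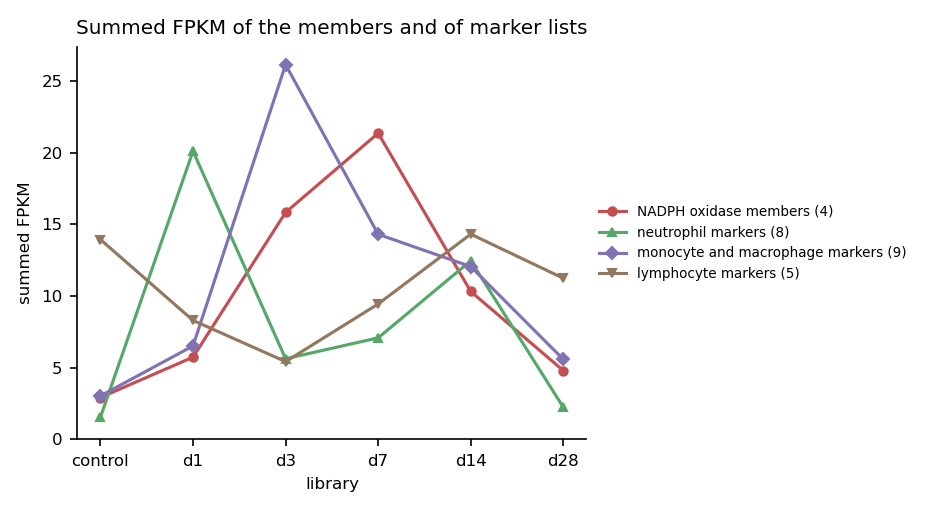
Summed FPKM (vertical axis, linear, from 0) of the 4 listed oxidase members and of 3 marker lists in the 6 libraries, with the number of genes that had a value in parentheses. The members are highest on day 7 (21.4 FPKM), the neutrophil markers on day 1 (20.1) and the monocyte and macrophage markers on day 3 (26.2). Arg1 makes up 12.5 of these 26.2 FPKM. The lymphocyte markers are at 13.9 in control, of which Trbc2 makes up 11.4, and at 14.3 on day 14.

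The genes whose course was most like that of the members were ranked by Pearson's r of log2(FPKM + 0.1) over the 6 libraries with the mean of the standardised profiles of the 4 genes. Cybb, which was not listed in control and on day 1, entered there as 0 FPKM. The 8554 genes listed in all 6 libraries with at least 5 FPKM in 1 of them were ranked. Among the nearest 10 were Spp1, Grn, Itgb2, Cd53, Plxnb2, Nckap1l, Alox5ap, Gusb and Ftl1, with r from 0.989 to 0.998. Itgb2 had 1.47, 2.52, 9.60, 12.8, 7.42 and 2.05 FPKM from control to day 28. Spp1 moved over a far wider range, from 7.42 to 783 FPKM. The nearest genes of the single members differed: Hexa, Trem2 and Rnase4 for Cybb, Rps6ka1, Iqgap1 and Nckap1l for Ncf1, Dbi, Zfp219 and Mgst1 for Ncf4, and Lamp2, Mindy1 and Vav2 for Hvcn1, with r from 0.987 to 0.998. Over 6 points many genes reach such values, and all points share their libraries, so these are descriptions. Between the members, r was 0.967 for Ncf1 and Hvcn1, and 0.703 for Hvcn1 and Ncf4, the lowest of the 6 pairs.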

How the data were processed

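Photothrombosis and sham-operated cortex was studied by RNA-seq in 6 libraries, 1 per group, each from the pooled RNA of 3 mice, read as pairs of 150 bases on strand-specific poly(A) libraries. The authors deposited per-library tables of transcript start, end and splicing events with FPKM for each event on mm10. The submitters' processing notes name Trimmomatic 0.30, HISAT2 2.0.1 and HTSeq 0.6.1. The program that made the event tables is not given in the sources used here. No read counts were analysed here, so depth per library, counting intervals and detection limits are unknown.

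Exact repeated lines and events without a gene identifier were left out. Gene symbols and positions came from GENCODE M21. The value of a gene in a library was the largest of its summed starts, its summed ends and any single event. An event that is not listed was treated as not listed, and as 0 in counts, medians, sums and the comparison of profiles. A gene was compared on a day if it reached 1 FPKM there or in control. Its log2 ratio to control was taken after adding 0.1 to each FPKM, and a size of 1 in either direction was the threshold. With 1 library per group no test was possible. The step that calls genes past the threshold was checked on simulated data with known changes. Tables were handled with pandas 2.3.3 and numpy 2.4.6 in Python 3.11.15, and plots drawn with matplotlib 3.10.9. The named genes were the members, their partners, members of the gene lists and the 10 genes of most similar course (3 for each member). Alternatives for the count of partner genes were added after seeing the data. The members, the gene lists and the alternatives were chosen with earlier results of these data known. Some genes of these lists are not reported here, and the counts, medians, ranges and sums of the lists were taken without them.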

Additional observations from a re-analysis of the deposited data

How the results depend on the processing

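No direction of a member's ratio was reversed under the alternatives run. The number of members higher changed as follows. At day 1 it was 1, and it was 0 with a minimum of 5 FPKM, a pseudocount of 1, a log2 threshold of 2 or the trend with length removed, and 2 without a minimum or with a threshold of 1.5-fold. With a minimum of 5 FPKM it was 1 at day 3 (from 3), 2 at day 7 (from 4) and 1 at day 14 (from 4). At day 14 it was 2 with summed starts, with a log2 threshold of 2 and with upper quartile scaling. Under that scaling Hvcn1 had a log2 ratio of 0.97, and Cybb (1.00 FPKM before it) no longer reached the minimum of 1 FPKM. At day 14 the number of members higher was 3 with a pseudocount of 1, the median of all genes set to 0, the trend with length removed, summed ends, the larger of starts and ends, or only genes listed in both libraries. At day 7 it was 3 with summed ends or only genes listed in both libraries, and at day 3 it was 4 without a minimum. At day 28 it was 1 with a threshold of 1.5-fold (from 0). The median ratio of the members at day 1 was 1.06 with only genes listed in both libraries. At day 14 the median fell from 2.06 to 1.00 with summed starts and to 1.08 with a pseudocount of 1. It fell to 1.23 with the larger of starts and ends, 1.27 with summed ends and 1.46 with only genes listed in both libraries. Under the other alternatives it was 1.81 or more. With summed starts the highest library of Ncf4 was day 3. Of the 10 genes of most similar course, 4 were shared with a ranking by Euclidean distance and 1 with one by Spearman's rho. All 10 genes of the latter had a rho of 1, and tied genes were taken in order of identifier. The overlap with the ranking by rho therefore does not show how stable the list is.

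Over all genes, the numbers higher at days 1, 3, 7, 14 and 28 (602, 1029, 1030, 1081 and 432) became 241, 336, 361, 429 and 140 with a minimum of 5 FPKM, and 1307, 1903, 2003, 1822 and 1114 without a minimum. They became 376, 622, 659, 691 and 241 with a pseudocount of 1, then 1353, 1920, 1847, 2225 and 1049 at 1.5-fold and 210, 359, 418, 363 and 142 at a log2 threshold of 2. The numbers lower (528, 305, 256, 834 and 328) became 150, 118, 108, 306 and 99 with a minimum of 5 FPKM, and 1142, 743, 657, 1416 and 859 without a minimum. They became 298, 174, 147 and 183 at days 1, 3, 7 and 28 with a pseudocount of 1. At 1.5-fold they were 1320, 795, 730, 1612 and 813, and at a log2 threshold of 2 they were 187, 84, 73, 450 and 116. With summed starts, 881, 1911 and 517 were lower at days 1, 14 and 28, and with only genes listed in both libraries 538 at day 14. The causes were not tested.

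No paired analysis was possible because each group has 1 library, and no replicate could be left out. The depth behind each value is unknown. Every value and every share of isoforms therefore has an unknown counting error. Values at or below 2.33 FPKM, the highest value of Cybb, are named here as low. Among them are all values of Cybb and Ncf4, those of Hvcn1 in control and on days 1, 14 and 28, and that of Ncf1 in control. The ratios to control rest on such control values. The differences between libraries include the spread between pools of mice, which was not measured.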

Other observations

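The oxidase draws on NADPH, and the superoxide it makes is broken down by other enzymes. Of 7 genes of NADPH supply, 5 had a value, and none was past a log2 ratio of 1 on days 1 to 14. Over all genes compared, the share higher was 3.68% (day 28) to 8.97% (day 14), and 2.79% were lower on day 28. G6pdx, the first enzyme of the pentose phosphate pathway, had 6.65 FPKM in control, 7.78 on day 1, 7.72 on day 3, 9.13 on day 7, 11.9 on day 14 and 9.17 on day 28. Pgd, which makes NADPH later in this pathway, had 8.12 FPKM in control, 14.4 on day 1 and 2.60 on day 28, and was the only one of the 5 below a log2 ratio of -1, on day 28. The median log2 ratio of the 5 genes was 0.40 on day 7, against 0.03 over all genes compared.

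Of 9 genes that handle superoxide and peroxide, 8 had a value and none was past a log2 ratio of 1 on any day, beside the shares over all genes given above. Gpx1, a peroxidase of glutathione, had 48.2 FPKM in control and 76.6 on day 7. Prdx6, a peroxiredoxin, had 89.9 FPKM in control, 145.6 on day 7, 56.1 on day 14 and 37.4 on day 28, and was the only one below a log2 ratio of -1, on day 28. Sod1, for the cytosolic superoxide dismutase, had 44.0 FPKM in control and 74.2 on day 14. Tkt and Sod2 had no value in any library.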
